A study of Rattus norvegicus with 19 samples.

Results

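The genes described here are 10 members of 2 families of calcium-binding proteins, the S100 proteins S100a4, S100a6, S100a8, S100a9, S100a10, S100a11 and S100b and the annexins Anxa1, Anxa2 and Anxa3. They were chosen by gene symbol from the 14225 genes that probe sets of the array name alone, and each was read by the 1 of its probe sets whose mean over the 19 arrays was highest. All rats were adult male Wistar rats, and the tissue was their somatosensory cortex. In set 1, with 10 arrays, the cortex was perfused with artificial cerebrospinal fluid that held 1 of 3 agents, and 1 array was run for each agent and time, so set 1 has no replicates. Deoxycholate (DOC), a bile salt used at 2 mM to open the blood-brain barrier, was followed to 7, 24 and 48 h. Bovine albumin at 0.1 mM, the main protein of serum, and TGF-β1 at 10 ng/ml, a cytokine of injury and scarring, were followed to 8, 24 and 48 h, and 1 sham-operated rat to 24 h. In set 2, with 9 arrays, all at 24 h, 3 rats received albumin, 4 received albumin with blockers of the TGF-β receptors, and 2 were sham-operated. SB431542 at 100 µM, which inhibits the kinase of the type 1 receptor, was combined with 50 µg/ml of antibody against the type 2 receptor, and no sham received these blockers. The label of the blocker group names no albumin concentration, and those of the sham rats name no perfusion, so a difference in either cannot be told apart from the agents. The study's question is whether barrier opening, albumin and TGF-β1 lead to epilepsy by a shared route.

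S100 proteins are small proteins with EF-hand loops that expose a binding surface when calcium is bound, and several act inside cells on the cytoskeleton and outside them on receptors. Annexins bind phospholipid membranes in the presence of calcium. The families meet in complexes: S100a10 binds Anxa2, S100a11 binds Anxa1, and the S100a10 and Anxa2 complex organises membrane and actin and holds plasminogen activators at the cell surface. In cortex, S100b is made chiefly by astrocytes, while S100a8 and S100a9, which pair as calprotectin, are abundant in neutrophils and monocytes.

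Of the 10 members, 6 lie on chromosome 2 in the rat gene table of assembly GRCr8. S100a4, S100a6, S100a8 and S100a9 lie in 1 run of S100 genes, in which S100a8 and S100a9 are neighbours. S100a11 and S100a10 are next to each other, with 59 and 60 coding genes between them and S100a8. S100b is on chromosome 20, Anxa1 on chromosome 1, Anxa2 on chromosome 8 and Anxa3 on chromosome 14.

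The 250 bases before the start site are shown for 4 members, S100a4, S100a11 and Anxa2, which had higher signals at 48 h than early, and S100a9, which had the opposite course. They are from RefSeq (GRCr8), whose promoter table held 8 of the 10 members, and in these 4 the window lay wholly outside the gene model. Both strands were searched for 7 motifs: AP-1 (TGANTCA), C/EBP (TTGCNNAA), STAT (TTCNNNGAA), SMAD (CAGACA), NF-kappaB (GGGNNTTCC), the TATA box (TATAAA) and the GC box (GGGCGG). Capitals mark the matches.
S100a4: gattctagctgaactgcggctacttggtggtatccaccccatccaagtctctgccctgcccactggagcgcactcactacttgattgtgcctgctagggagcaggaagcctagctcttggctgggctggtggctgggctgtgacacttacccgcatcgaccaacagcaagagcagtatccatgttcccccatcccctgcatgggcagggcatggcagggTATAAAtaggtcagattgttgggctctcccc
S100a11: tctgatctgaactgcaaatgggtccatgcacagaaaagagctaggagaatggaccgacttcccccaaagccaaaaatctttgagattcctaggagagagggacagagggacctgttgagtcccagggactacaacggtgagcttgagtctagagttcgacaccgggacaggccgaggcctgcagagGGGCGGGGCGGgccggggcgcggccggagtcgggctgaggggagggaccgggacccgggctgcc
Anxa2: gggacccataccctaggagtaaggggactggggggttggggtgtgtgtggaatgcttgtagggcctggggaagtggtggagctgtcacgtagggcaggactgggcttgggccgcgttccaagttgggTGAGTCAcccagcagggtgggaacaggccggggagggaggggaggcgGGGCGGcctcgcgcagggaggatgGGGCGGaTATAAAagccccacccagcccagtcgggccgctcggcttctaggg
S100a9: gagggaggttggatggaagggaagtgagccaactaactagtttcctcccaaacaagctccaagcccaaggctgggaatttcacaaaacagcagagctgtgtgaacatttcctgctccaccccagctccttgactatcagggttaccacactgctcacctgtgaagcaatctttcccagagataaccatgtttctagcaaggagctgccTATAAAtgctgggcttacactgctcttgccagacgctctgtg
The windows are chr2:178388279-178388528 (plus strand) for S100a4, chr2:181874882-181875131 (plus strand) for S100a11, chr8:78986002-78986251 (plus strand) for Anxa2 and chr2:178490623-178490872 (minus strand) for S100a9. S100a4 and S100a9 each held 1 TATA box, from 31 to 26 and from 42 to 37 bases before the start. S100a11 held 2 GC boxes that overlap by their last and first base and no TATA box. Anxa2 held an AP-1 match (TGAGTCA) from 123 to 117 bases before the start, 2 GC boxes and a TATA box. Of the 33469 promoters in the table, 6.34% held the AP-1 motif in the same window, 12.9% the TATA box and 30.5% the GC box. The C/EBP, STAT, SMAD and NF-kappaB letters stood in 9.22%, 7.67%, 17.2% and 5.09% of them and in none of these 4 windows. These matches describe letters, not bound sites.

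Signals are log2 values, so a difference of 1 is a doubling. The median signal of an array lay between 5.09 and 5.17 in set 1 and between 6.05 and 6.18 in set 2, so differences were taken within a set. In set 2, albumin replicate 2 correlated least with its set (median r 0.981, against 0.992 to 0.996 for the other arrays). A gene was tested where its signal was above 4 on at least 2 arrays of a set, and all 10 members were tested in both sets, S100a8 with 4 of 10 arrays of set 1 and 7 of 9 of set 2 above that level. Tests are limma's moderated tests with Benjamini-Hochberg adjustment over 10334 genes in set 2 and 10023 in set 1, and a gene is said to have risen or fallen where the adjusted p was under 0.05. The tissue is bulk cortex, in which fewer cells of a type and less RNA per cell cannot be told apart. Neuron and astrocyte genes were high on every array, with list means of 11.5 to 12.96 and 10.4 to 11.8.

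**Figure D1:**
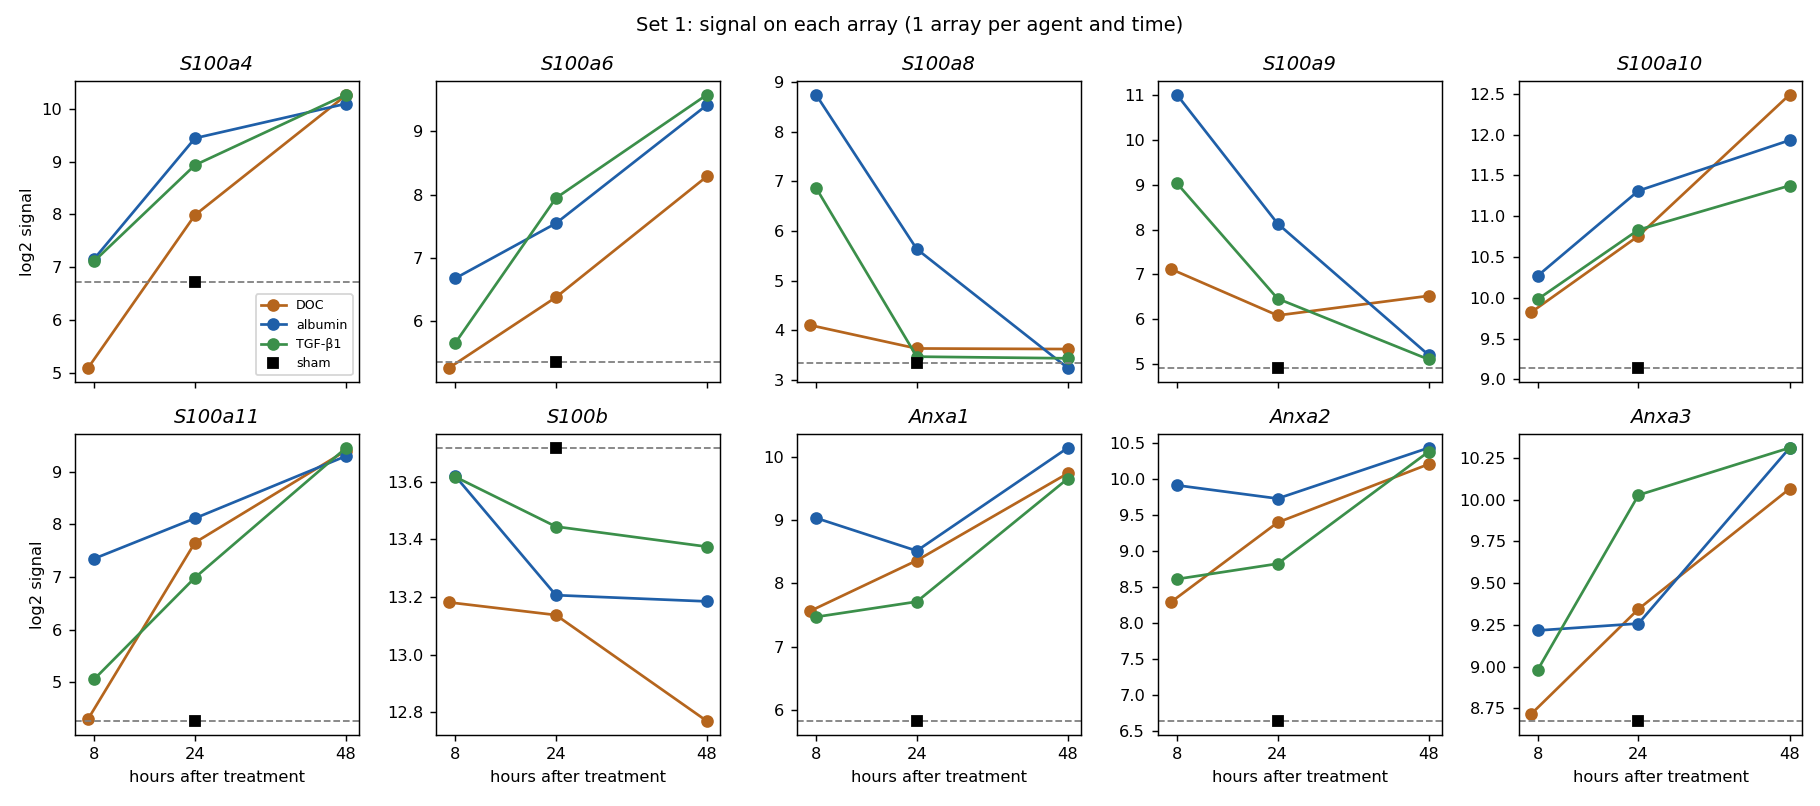
Log2 signal of the 10 genes in set 1 (vertical axis, a separate scale for each gene) against hours after treatment, with 1 array per point, coloured by agent, and the single 24 h sham as a square and dashed line. S100a4, S100a6, S100a10, S100a11 and Anxa3 climb at each step with all 3 agents, S100a8 and S100a9 are highest on the albumin array at 8 h, and S100b lies below sham throughout.

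Among the S100 proteins that act on the cytoskeleton, S100a4, a partner of non-muscle myosin, climbed through set 1 with each agent. Its signal was 5.09, 7.99 and 10.26 at 7, 24 and 48 h of DOC. It was 7.16, 9.44 and 10.10 at 8, 24 and 48 h of albumin, and 7.12, 8.93 and 10.27 at those times of TGF-β1. The sham had 6.72, so that only the DOC array at 7 h lay below it, and the agents ended close together at 48 h.

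S100a11, which binds Anxa1, and S100a10, which binds Anxa2, followed the same order of times. S100a11 had 4.30, 7.66 and 9.40 with DOC, 7.35, 8.12 and 9.30 with albumin, and 5.06, 6.99 and 9.46 with TGF-β1. Its sham signal was 4.26, which DOC at 7 h barely exceeded and albumin at 8 h exceeded clearly. S100a10 had 9.83, 10.76 and 12.49 with DOC, 10.27, 11.31 and 11.93 with albumin, and 9.98, 10.83 and 11.37 with TGF-β1, all above the sham's 9.14, and its highest signal was with DOC at 48 h.

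S100a6, also called calcyclin, began near the sham's 5.37 with DOC and TGF-β1 and 1.31 above it with albumin, and ended far above it with each agent. It had 5.26, 6.38 and 8.29 with DOC, 6.68, 7.55 and 9.42 with albumin, and 5.66, 7.95 and 9.58 with TGF-β1. At 48 h the DOC array was the lowest of the 3.

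S100a8 and S100a9 ran the other way. S100a9 had 11.02, 8.13 and 5.19 at 8, 24 and 48 h of albumin, and 9.04, 6.46 and 5.10 of TGF-β1. With DOC it had 7.12, 6.08 and 6.52, a flatter course, against 4.90 in sham. S100a8 had 8.75, 5.64 and 3.24 with albumin, 6.87, 3.46 and 3.43 with TGF-β1, and 4.10, 3.63 and 3.62 with DOC, against 3.34 in sham. At 48 h S100a8 was below the level of 4 with every agent. For both genes the early signal was highest with albumin, intermediate with TGF-β1 and lowest with DOC. The 7 h DOC array was 0.76 above sham for S100a8 and 2.22 above it for S100a9.

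S100b, the astrocyte member, was lower than the sham's 13.72 on all 9 treated arrays. It had 13.18, 13.14 and 12.77 with DOC, 13.62, 13.21 and 13.18 with albumin, and 13.62, 13.44 and 13.37 with TGF-β1. It declined at each step with every agent, by less than 1 log2 unit in all.

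The annexins were already above sham at the first time. Anxa1, a mediator of the anti-inflammatory action of glucocorticoids, had 7.56, 8.36 and 9.74 with DOC, 9.04, 8.52 and 10.15 with albumin, and 7.47, 7.71 and 9.66 with TGF-β1, against 5.82 in sham. Anxa2, a receptor for plasminogen and its activator, had 8.28, 9.39 and 10.21 with DOC, 9.91, 9.73 and 10.43 with albumin, and 8.61, 8.82 and 10.38 with TGF-β1, against 6.63. Both had a dip at 24 h with albumin and no dip with the other agents.

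Anxa3, a further member of the family, moved less. It had 8.72, 9.34 and 10.06 with DOC, 9.22, 9.26 and 10.31 with albumin, and 8.98, 10.03 and 10.31 with TGF-β1, against 8.67 in sham. Of the 3 other Anxa3 probe sets, 1 went from 3.50 in sham to 5.18 to 5.31 early and 5.47 to 6.0 at 48 h. Its step from sham to the early arrays was larger than that of the main one. Another went from 4.10 in sham to 4.75 to 5.43 early and 5.59 to 6.22 at 48 h. The last stayed between 3.31 and 3.38 on all arrays of set 1. The second Anxa2 probe set stayed between 2.47 and 2.61 on all arrays of set 1.

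All 9 treated arrays lay above the sham for 6 members, S100a9, S100a10, S100a11 and the 3 annexins, as they did for 11.2% of the genes tested. All 9 lay below it for S100b, as for 12.2%. The signal climbed at both steps with all 3 agents for 5 members, S100a4, S100a6, S100a10, S100a11 and Anxa3, as for 3.36% of genes, and it declined at both steps with all 3 for S100a8 and S100b, as for 1.82%.

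Between the first time (7 or 8 h) and 48 h, 7 members rose and 0 fell, where 3.91% of the genes tested rose and 1.18% fell. S100a11 gained 3.82 ± 0.56 log2 units (± SE, n = 3 against 3; limma adjusted p = 0.0142), S100a4 by 3.75 ± 0.41 (adjusted p = 0.00518) and S100a6 by 3.23 ± 0.27 (adjusted p = 0.00225), which are 14.1-fold, 13.4-fold and 9.38-fold. Rises were smaller for S100a10 (1.90 ± 0.26, adjusted p = 0.0107), Anxa1 (1.83 ± 0.26, adjusted p = 0.0131), Anxa2 (1.40 ± 0.30, adjusted p = 0.047) and Anxa3 (1.26 ± 0.19, adjusted p = 0.0164). For these 7 every 48 h array was above every early array, as for 14.8% of genes. S100a9 had −3.46 ± 0.84 (adjusted p = 0.068), S100a8 −3.15 ± 0.84 (adjusted p = 0.0869) and S100b −0.36 ± 0.13 (adjusted p = 0.161), none of which passed. The median of the 10 members was 1.62 against 0.01 for all genes tested. The 3 agents stand in for replicates here: without the TGF-β1 arrays only S100a6 passed, without the albumin arrays 6 members did, and without the DOC arrays 5 did, among them falls of S100a8 (−4.48, adjusted p = 0.0345) and S100a9 (−4.88, adjusted p = 0.0178).

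The steps within that span were smaller. From 24 to 48 h, S100a6 rose by 1.80 ± 0.27 (limma adjusted p = 0.0308, n = 3 against 3) and Anxa1 by 1.65 ± 0.26 (adjusted p = 0.0382), so 2 members rose where 1.30% of genes did, and 0 passed when any 1 agent was left out. From the first time to 24 h, 0 members passed in limma, where 0.499% of genes rose, although 7 had an unadjusted p under 0.05, as 14.1% of genes did. S100a4 had 2.33 ± 0.41 in that step (adjusted p = 0.0665) and S100a6 1.43 ± 0.27 (adjusted p = 0.0761), while Anxa1 had 0.17 ± 0.26 (adjusted p = 0.809) and Anxa2 0.38 ± 0.30 (adjusted p = 0.606).

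Against the lone sham of set 1, 2 annexins passed, those that S100a10 and S100a11 bind. Averaged over its 3 times, albumin raised Anxa1 by 3.41 ± 0.37 (SE, n = 3 against 1; limma adjusted p = 0.0268) and Anxa2 by 3.39 ± 0.42 (adjusted p = 0.0385), so 2 members rose where 0.339% of genes did. DOC raised Anxa1 by 2.73 ± 0.37 (adjusted p = 0.0458), 1 member where 0.319% of genes rose, and Anxa2 had 2.66 ± 0.42 (adjusted p = 0.0582). With TGF-β1, 0 members and 0 of 10023 genes passed in limma, 7 members had an unadjusted p under 0.05, as 7.49% of genes did, and Anxa1 had 2.46 ± 0.37 and Anxa2 2.64 ± 0.42 (both adjusted p = 0.112). The 3 comparisons share the sham array, whose spread was taken to equal that of the treated arrays. The DOC call ended without the arrays of any 1 time, and the albumin calls without those of 24 or 48 h, while without 8 h Anxa1 and S100a6 passed.

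Between agents, 0 members passed in limma in any of the 3 pairs, where 0.00998%, 0.0299% and 0% of genes did for albumin against DOC, TGF-β1 against DOC and TGF-β1 against albumin. At an unadjusted p under 0.05 there were 6, 3 and 2 members, against 7.47%, 20.8% and 8.76% of genes. The closest was S100a6, which was 1.08 ± 0.27 higher with TGF-β1 than with DOC (adjusted p = 0.122) and 1.24 ± 0.27 higher with albumin than with DOC (adjusted p = 0.645). S100b was 0.31 ± 0.13 higher with albumin (adjusted p = 0.662) and 0.45 ± 0.13 higher with TGF-β1 (adjusted p = 0.136) than with DOC.

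**Figure D2:**
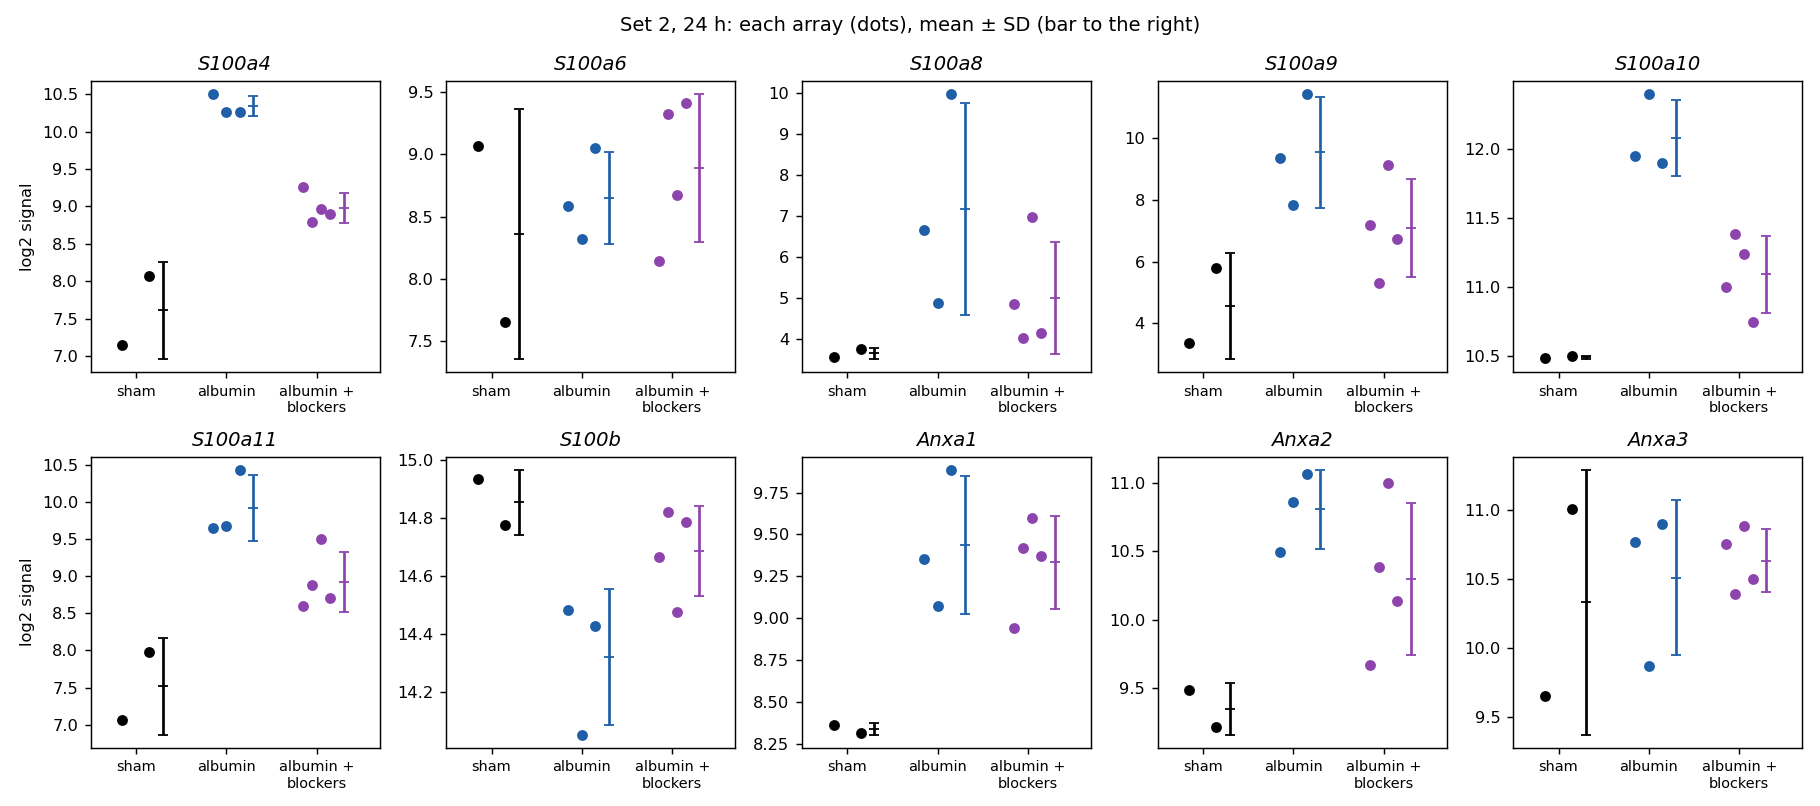
Log2 signal of the 10 genes on each array of set 2 at 24 h (vertical axis, a separate scale for each gene), for 2 sham, 3 albumin and 4 albumin plus blockers rats, with the mean ± SD to the right of each group. For S100a4, S100a10 and S100a11 the mean of the blocker group lies between those of sham and albumin, whereas for S100a6 and Anxa3 the sham arrays span much of the range.

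Set 2 asked what albumin did after 24 h in separate animals, and S100a4 had the smallest adjusted p of the members. S100a4 had 10.50, 10.27 and 10.26 with albumin, 9.26, 8.80, 8.97 and 8.90 with albumin and blockers, and 7.16 and 8.07 in sham. The albumin arrays had an SD of only 0.13. S100a4 rose with albumin by 2.73 ± 0.25 (SE, n = 3 against 2; limma adjusted p = 0.0147), a 6.63-fold higher signal.

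S100a10 had 11.94, 12.40 and 11.90 with albumin, 10.997, 11.38, 11.23 and 10.75 with blockers, and 10.48 and 10.49 in sham. S100a11 had 9.64, 9.68 and 10.43 with albumin, 8.59, 8.89, 9.50 and 8.71 with blockers, and 7.06 and 7.98 in sham. For both genes the mean was lowest in sham and highest with albumin. S100a10 rose with albumin by 1.59 ± 0.21 (limma adjusted p = 0.0316), and S100a11 by 2.40 ± 0.37 (adjusted p = 0.044), 3.02-fold and 5.27-fold.

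These were the 3 members of 10 that rose with albumin, where 0.958% of the genes tested rose, and 0 fell, where 0.368% did. The median over the members was 1.52 against 0.02 for all genes tested. The same 3 passed without albumin replicate 2, the array that stood apart. Without either sham, or without blockers replicate 1 or 2, only S100a4 passed, and with the albumin and sham arrays alone 0 did (S100a4 adjusted p = 0.0865).

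S100a8 and S100a9 had the widest spread between albumin rats. S100a9 had 9.37, 7.82 and 11.43 with albumin, 7.20, 5.30, 9.14 and 6.72 with blockers, and 3.35 and 5.78 in sham. S100a8 had 6.65, 4.87 and 9.96 with albumin, 4.86, 4.01, 6.98 and 4.15 with blockers, and 3.55 and 3.74 in sham. Albumin replicate 3 and blockers replicate 3 were the highest of their groups for both genes. The differences of 4.98 ± 1.32 for S100a9 (limma adjusted p = 0.0954) and 3.52 ± 1.39 for S100a8 (adjusted p = 0.201) did not pass. Without albumin replicate 3 they were 4.03 and 2.12.

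Anxa1 and Anxa2 likewise had a higher mean with albumin than in sham without passing. Anxa1 had 9.35, 9.07 and 9.88 with albumin, 8.95, 9.42, 9.60 and 9.37 with blockers, and 8.37 and 8.32 in sham (1.10 ± 0.25, adjusted p = 0.0705). Anxa2 had 10.50, 10.86 and 11.07, then 9.67, 10.38, 11.003 and 10.14, and 9.49 and 9.22 in sham (1.46 ± 0.35, adjusted p = 0.0758). For both genes the blocker arrays overlapped the albumin arrays, and albumin replicate 3 was above every blocker array.

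S100b had 14.48, 14.05 and 14.43 with albumin, 14.67, 14.82, 14.48 and 14.79 with blockers, and 14.93 and 14.77 in sham. The albumin mean lay below that of sham (−0.53 ± 0.16, adjusted p = 0.123), with the lowest signal in albumin replicate 2, while the blocker group overlapped both. Astrocyte genes, 7 of 8 on the array, had means of 11.49, 10.67 and 11.39 with albumin, 11.59 to 11.77 with blockers and 11.58 and 11.78 in sham, also lowest in albumin replicate 2. Among them Gjb6, a connexin, had 6.52 to 8.78 with albumin against 10.2 to 10.5 in sham, and Gfap 14.5 to 14.6 against 12.7 to 13.9. The part of astrocyte number or state in the S100b signal was not tested.

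S100a6 and Anxa3 had the smallest differences between albumin and sham. S100a6 had 8.58, 8.32 and 9.05 with albumin, 8.14, 9.33, 8.67 and 9.41 with blockers, and 9.07 and 7.65 in sham (0.29 ± 0.50, 95% interval −0.85 to 1.43, adjusted p = 0.747). Anxa3 had 10.77, 9.87 and 10.90, then 10.76, 10.39, 10.89 and 10.50, and 9.66 and 11.01 in sham (0.18 ± 0.42, 95% interval −0.80 to 1.15, adjusted p = 0.823). In both genes the shams were more than 1 log2 unit apart, so these intervals still allow rises of more than a doubling. On the single albumin array at 24 h of set 1, S100a6 was 2.18 above its sham, against 0.22, −0.04 and 0.69 above the sham mean in set 2.

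**Figure D3:**
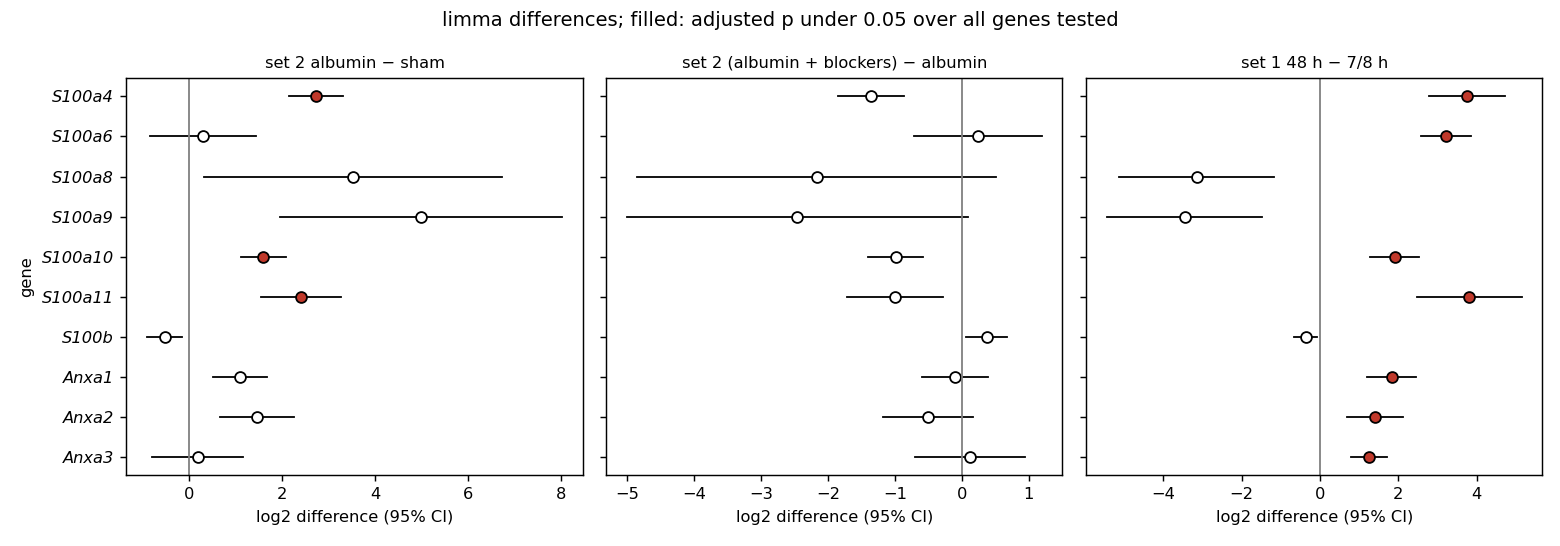
Log2 differences from limma (points) with unadjusted 95% confidence intervals (lines) for the 10 genes in 3 comparisons, filled where the adjusted p was under 0.05. Filled points are S100a4, S100a10 and S100a11 for albumin against sham, none for blockers added to albumin, and the 7 risen genes for 48 h against 7 or 8 h.

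Blocking the TGF-β receptors on top of albumin gave 0 calls among the members in limma, where 0.0194% of genes fell and 0 rose, and 4 members had an unadjusted p under 0.05, as 16.6% of genes did. S100a4 had −1.36 ± 0.21 (SE, n = 4 against 3; limma adjusted p = 0.0796), S100a11 had −0.995 ± 0.31 (adjusted p = 0.202) and S100a10 −0.99 ± 0.18 (adjusted p = 0.108). In these 3 members every blocker array was below every albumin array, as in 8.71% of genes. S100b had 0.37 ± 0.14 (adjusted p = 0.257), S100a9 −2.45 ± 1.11 (adjusted p = 0.31) and S100a8 −2.16 ± 1.17 (adjusted p = 0.37). Without albumin replicate 3 these were −1.51 for S100a9 and −0.76 for S100a8, and without albumin replicate 2 S100a8 had −3.31. Anxa2 had −0.51 ± 0.29 (adjusted p = 0.392) and Anxa1 −0.10 ± 0.21 (adjusted p = 0.813), with a 95% interval of −0.59 to 0.39 for Anxa1. S100a6 (0.24 ± 0.42, adjusted p = 0.778) and Anxa3 (0.12 ± 0.36, adjusted p = 0.871) had small differences with wide errors.

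With blockers, 0 members and 0 of 10334 genes passed against sham in limma, and 5 members had an unadjusted p under 0.05, as 4.30% of genes did. The differences were 1.40 ± 0.35 for S100a11 (adjusted p = 0.959), 1.37 ± 0.24 for S100a4 (adjusted p = 0.397), 0.99 ± 0.24 for Anxa1 (adjusted p = 0.959) and 0.60 ± 0.20 for S100a10 (adjusted p = 1.0). For 6 members every blocker array was above both shams, as for 11.6% of genes. The 3 comparisons of set 2 share arrays, so their values are given side by side and not set against each other.

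**Figure D4:**
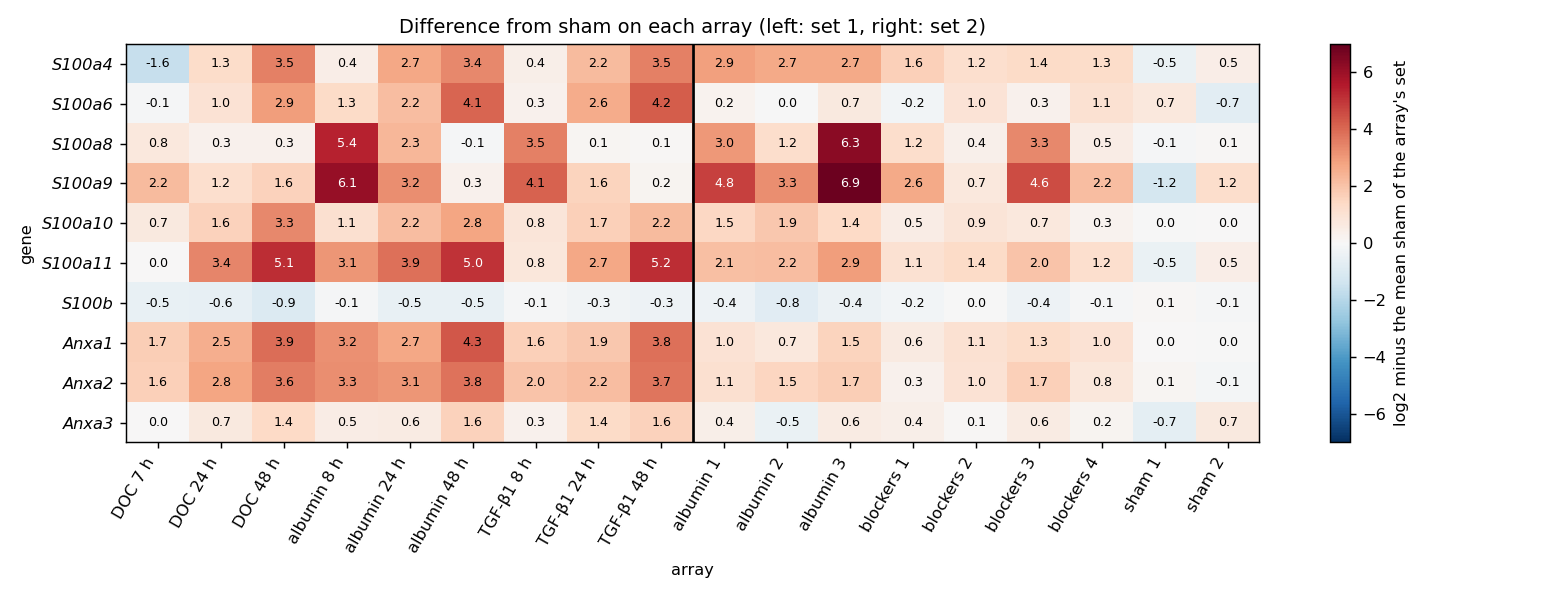
Log2 difference from the mean sham of the array's own set (colour and printed value) for the 10 genes (vertical axis) on the 9 treated arrays of set 1 and the 9 arrays of set 2 (horizontal axis). S100a9 reaches 6.11 on the 8 h albumin array of set 1 and 6.87 on albumin replicate 3 of set 2, while S100b stays between −0.95 and 0.08.

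Markers of blood and tissue cells differed between the same groups. Of 12 neutrophil genes, 8 were on the array, and their mean was 5.27 to 6.08 with albumin, 3.83 to 5.18 with blockers and 3.16 to 4.48 in sham of set 2. In set 1 the mean went from 3.95 to 4.51 and 4.61 at 8, 24 and 48 h of albumin, from a sham of 2.60. It went upward while S100a8 and S100a9 declined, but only 4 of the 8 genes were tested in set 1. These were Mmp9, Itgam, Lcn2 and Fcgr3a, so the set 1 mean mostly follows these genes and is not a measure of neutrophil number. Within the list, Camp and Cxcr2 were between 1.89 and 2.07 on all 19 arrays and Mmp8 was at most 3.72. Csf3r was at most 3.62 in set 1, and in set 2 had 4.94 to 8.41 with albumin against 3.75 to 4.97 in sham. There Mmp9 had 4.16 to 9.48 with albumin against 2.58 to 2.80, and Lcn2 5.97 to 12.4 against 3.10 to 7.71. Itgam and Fcgr3a, which macrophages also express, were like Mmp9 higher on every albumin array of set 2 than in sham, while Csf3r and Lcn2 overlapped. The part of neutrophils in the S100a8 and S100a9 signals was not tested.

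Monocyte and macrophage genes, 9 of 10 on the array, had means of 6.06 to 7.13 with albumin, 5.06 to 5.91 with blockers and 4.51 to 5.48 in sham, the same order as S100a4, S100a10 and S100a11. Only 5 of them were tested in set 2, and Ccr2, Cd163 and Ms4a7 were between 1.98 and 2.28 on all its arrays. Cd14, Lyz2, Lgals3 and Gpnmb were higher on every albumin array than in sham, whereas Mrc1 had 3.43 to 5.13 against 5.06 to 5.28. In set 1, from 7 or 8 h to 48 h, where 3.91% of all genes rose, 5 of the 6 monocyte and macrophage genes tested rose, along with 4 of 7 microglia genes, 5 of 8 endothelium and pericyte genes, 4 of 9 meningeal and fibroblast genes and 2 of 4 neutrophil genes. None of 8 neuron and 5 oligodendrocyte genes rose, and 1 of 7 astrocyte genes did. In set 2, microglia genes, 7 of 8 on the array, had 6.23 to 6.44 with albumin, 6.64 to 7.47 with blockers and 7.37 to 7.41 in sham. The part of these cells in the S100 and annexin signals was not tested.

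Genes of meninges and fibroblasts, all 11 on the array, had 5.62 to 6.76 with albumin, 7.21 to 8.34 with blockers and 8.60 to 8.83 in sham of set 2. In set 1 they had 4.57 to 5.67 with DOC, 4.81 to 6.98 with albumin and 5.65 to 7.06 with TGF-β1, against 4.97 in sham, and were highest at 48 h with each agent. S100a6 had its highest set 1 signals on those 48 h arrays, and in set 2 its highest signals were on blockers replicates 4 and 2, the highest of the blocker group for the meningeal genes. Sham replicate 2, however, had the lowest S100a6 signal of set 2 (7.65) at a meningeal mean of 8.60, higher than that of any albumin or blocker array. The part of meningeal tissue in the S100a6 signal was not tested. The 2 red cell genes on the array had means of 9.67 to 11.1 with albumin, 10.1 to 11.5 with blockers and 8.74 to 9.56 in sham of set 2. In set 1 their mean was 9.90, 9.48 and 8.04 with DOC and 10.3, 9.25 and 8.84 with albumin. It was 9.57, 9.11 and 8.77 with TGF-β1, against 7.48 in sham. Both genes fell from 7 or 8 h to 48 h, where 1.18% of all genes fell. The part of blood in the member signals was not tested.

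**Figure D5:**
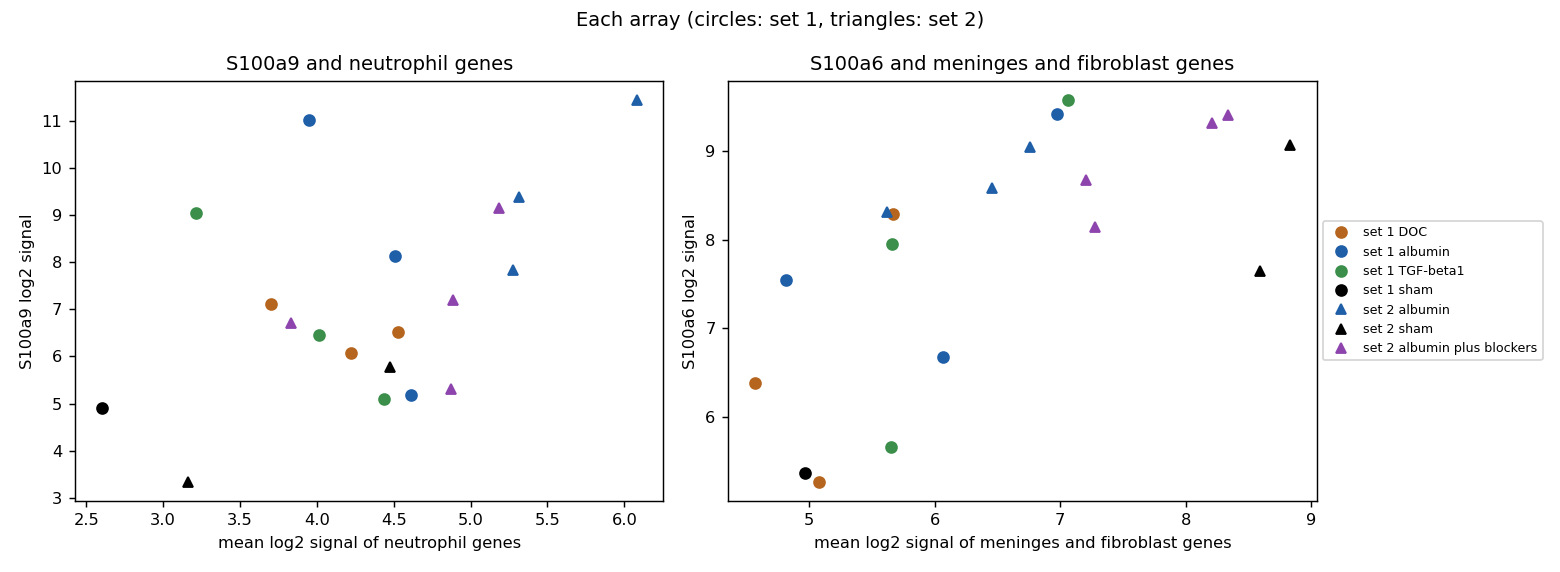
Log2 signal of S100a9 against the mean log2 signal of 8 neutrophil genes (left) and of S100a6 against that of 11 meningeal and fibroblast genes (right), 1 point per array, circles for set 1 and triangles for set 2, coloured by group. The 8 h albumin array of set 1 has an S100a9 signal of 11.02 at a neutrophil mean of 3.95, and the set 2 shams have the highest meningeal means (8.60 and 8.83).

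The genes whose course over the 19 arrays was most like that of each member were found by Pearson correlation after each set's mean was subtracted, among 9846 genes tested in both sets. The arrays share treatments and sets, so these values are descriptions. S100a4 was most like Ctsz, a lysosomal cathepsin (r = 0.972), S100a10 like Msn, the membrane linker moesin (0.952), S100a11 like Arpc1b, a subunit of the actin-nucleating Arp2/3 complex (0.949), and S100a6 like the galectin Lgals1 (0.906). S100a9 and S100a8 were both most like Ch25h, an oxysterol-making hydroxylase (0.946 and 0.854), followed by Cebpd for S100a9 (0.819) and Sod2 for S100a8 (0.852). S100b was most like Aldoc, an astrocyte aldolase (0.964). Anxa1 was most like Pros1, the anticoagulant protein S (0.899), Anxa2 like the protease inhibitor Timp1 (0.915), and Anxa3 like Ly86 (0.958). Some pairs differed between the sets. In set 1 and set 2, Anxa1 with Pros1 had 0.931 and 0.638, and S100a6 with Lgals1 0.932 and 0.653. The order was opposite for S100a9 with Cebpd (0.675 and 0.914) and S100a8 with Sod2 (0.717 and 0.959).

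Among the members themselves, the likest pairs over the 19 arrays were Anxa1 with Anxa2 (r = 0.951) and S100a8 with S100a9 (0.938), and the most opposed was S100a10 with S100b (−0.80). The complex partners had 0.838 for S100a10 with Anxa2 and 0.898 for S100a11 with Anxa1. S100a6 and S100a4 had 0.923 in set 1 and −0.05 in set 2, whereas S100a4 and S100a11 had 0.915 and 0.916.

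Of 20 further S100 and annexin genes, 15 were on the array and 10 were tested. Their median from 7 or 8 h to 48 h was 0.69, and 2 rose, where 3.91% of all genes did, S100a16 (1.01 ± 0.19, limma adjusted p = 0.0308) and Anxa5, which binds exposed phosphatidylserine (0.94 ± 0.20, adjusted p = 0.0485). In the other 11 comparisons 0 passed in limma, with 1 to 7 of the 10 at an unadjusted p under 0.05, against 4.30% to 21.4% of all genes. With albumin in set 2 the smallest p values were those of S100a1 (−0.70 ± 0.21, adjusted p = 0.115) and S100a3 (1.26 ± 0.40, adjusted p = 0.133), and the median was −0.22, in contrast to 1.52 for the members. S100a3 was also 2.37 ± 0.39 higher with TGF-β1 than with DOC in set 1 (adjusted p = 0.0894). Its mean was 3.40 with DOC and its sham signal 3.78, both below the level of 4.

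Of 18 receptors and binding partners, 15 were on the array, and 8 were tested in set 2 and 9 in set 1. Myh9, the heavy chain of the non-muscle myosin that S100a4 binds, rose from 7 or 8 h to 48 h by 0.98 ± 0.19 (limma adjusted p = 0.0383), and it was the only partner to pass in any of the 12 comparisons. In set 2 Myh9 had 1.29 ± 0.28 with albumin (adjusted p = 0.0666) and −0.85 ± 0.24 with blockers added (adjusted p = 0.186). Pla2g4a, the phospholipase A2 that annexins and S100a10 are known to restrain, had 1.70 ± 0.53, 1.82 ± 0.53 and 1.78 ± 0.53 above the set 1 sham with DOC, albumin and TGF-β1 (adjusted p = 0.172, 0.243 and 0.404). Cacybp, named for binding S100a6, had −0.40 ± 0.14 with albumin in set 2 (adjusted p = 0.154).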

How the data were processed

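The authors deposited log2 signals of rat Affymetrix probe sets. The submitters' processing notes name GCRMA, a method that subtracts background, equalises quantiles and combines the probes of a set, without its version. Set 1 and set 2 had different medians, so each was analysed alone. Of 31099 probe sets, 20843 named 1 gene, and symbols were updated through the GRCr8 gene table.

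Two-sided tests came from limma 3.58.1 (R 4.3.3, eBayes) over genes above log2 4 on at least 2 arrays of a set, and were tested on simulated data. Set 2 was fitted as 3 groups. Set 1 was fitted with additive terms for agent and time, with 7 h and 8 h as 1 early time, and its residual is the spread. SE is the moderated standard error. Precision is limited by the number of arrays. Same-numbered arrays of set 2 did not deviate together in every pair (r from −0.14 to 0.22), so numbers were not used as pairs.

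The members, gene lists and naming rules were chosen with earlier results of these data known. Of the further family and partner genes, those called were named, or else the 2 with the smallest p; other named ones were chosen after their values were seen. Alternatives were other filters, probe set rules, priors, centring, sample sets and arrays left out. Pseudogene copies of S100a10, S100a11 and Anxa2 are listed by RefSeq, and cross-hybridisation was not tested. Plots were made with Python 3.11.15 and matplotlib 3.10.9.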

Additional observations from a re-analysis of the deposited data

How the results depend on the processing

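Of the recomputed member differences, 1149 kept their direction and their side of the threshold, 59 lost a call, 22 gained one and 21 changed sign. Most of the 1149 had not been called, so they had no call to lose. The 59 losses all come from the few calls of the main fits. These were 3 for albumin against sham in set 2, and 1 for DOC and 2 for albumin against sham in set 1. The others were 2 for 48 h against 24 h and 7 for 48 h against the first time.

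For albumin against sham in set 2, the count of members called was 1 with no filter on low values and 0 with only those groups in the fit, and it ranged from 1 to 3 when single arrays were left out. With the replicate block S100a10 and S100a11 passed and S100a4 did not (2.76, adjusted p = 0.0501), and 5 of 9 arrays correlated best with an array of their own number. With a term for the set over all 19 arrays, Anxa2 and S100b passed in place of the other 3.

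In set 1, DOC against sham gave 0 with no filter or with the mean of a gene's probe sets, 2 with a trend and robust prior and 4 with the shams of set 2 added. Albumin against sham gave 0, 1, 4 and 7 under these settings, and TGF-β1 against sham gave 2 with the added shams. Because signal levels differ by set, arrays were centred on their medians in the setting with added shams. Such centring leaves differences between the sets in single genes. From 24 h against the first time, 2 were called with a trend and robust prior. For 48 h against 24 h the count was 0 with no filter and 1 with a mean log2 above 5, and for 48 h against the first time it was 2 with no filter. There S100a9 passed as a fall with a trend and robust prior (−3.46, adjusted p = 0.0482), and Anxa2 did not pass with centred arrays (adjusted p = 0.053) or the mean of probe sets (adjusted p = 0.0684). Leaving out 1 time gave 0 for DOC and 0 to 2 for albumin. Leaving out 1 agent gave 0 for 48 h against 24 h and 1 to 6 for 48 h against the first time.

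The sign changes were all of uncalled differences. S100a6 with DOC was −0.10 with the added shams, and the other 20 came from leaving out arrays. Leaving out single arrays of set 2 gave ranges of −0.42 to 1.0 (S100a6) and −0.50 to 0.86 (Anxa3) for albumin against sham. For blockers against albumin they were −0.28 to 0.12 (Anxa1) and −0.20 to 0.315 (Anxa3), and for blockers against sham −0.18 to 1.24 (S100a6) and −0.38 to 0.98 (Anxa3). Leaving out a time of set 1 gave −0.18 to 2.40 for S100a4 with DOC against sham and −0.056 to 0.50 for S100a10 with albumin against DOC (−0.0024 without the first time). For TGF-β1 against DOC it gave −0.18 to 1.30 (S100a8), −0.52 to 1.15 (S100a9), −0.52 to 0.12 (S100a10), −0.31 to 0.41 (S100a11) and −0.20 to 0.25 (Anxa2). For TGF-β1 against albumin it gave −0.28 to 0.063 (S100a4), −0.43 to 0.28 (S100a6) and −0.12 to 0.39 (Anxa3). Leaving out an agent gave −0.14 to 0.52 for Anxa1 from the first time to 24 h. The number of arrays limits what can be called.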
